A study of Mus musculus with 54 samples.

Results

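Dapagliflozin was examined in the early proximal tubules of non-diabetic wild-type mice, in 9 of the 48 libraries of the deposited table. The libraries were chosen by their sample group label, and every gene with a TPM of 1 or more in at least 4 of the 9 libraries was compared (TPM is a transcript abundance corrected for transcript length, with the same sum in every library), which left 10364 genes. The 4 dapagliflozin samples came from non-diabetic (Ins2+/+) Sglt1+/+ male DBA mice that were 14 weeks old and were given the drug at 10 mg/kg diet for 2 weeks. The 5 vehicle samples came from mice of the same genotype, strain, sex and age after 2 weeks of vehicle. The drug effect was also set beside that in 3 other backgrounds of the same strain and age, with the same drug dose and treatment time. These were non-diabetic Sglt1-/- mice (6 dapagliflozin, 5 vehicle), Sglt1+/+ mice with diabetes from the Ins2 Akita/+ mutation (5 dapagliflozin, 6 vehicle) and Sglt1-/- mice with the same mutation (6 dapagliflozin, 6 vehicle). Sglt1+/+ Akita mice aged 14 weeks and given semaglutide at 3 nmol/kg per day for 2 weeks (5 samples) were not compared. Their samples entered the shared estimate of the spread. Each sample pooled 70 to 80 tubules that were positive for SGLT2 and cut out by laser capture. Which animal each sample came from is not stated in the labels, so p-values cover only the spread between samples, and that spread may be technical in part.

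SGLT2, encoded by Slc5a2, carries glucose together with sodium through the brush border of the early proximal tubule and takes back most of the filtered glucose. SGLT1, encoded by Slc5a1, recovers much of the remainder further downstream, and glucose leaves the cell on the blood side through GLUT2, encoded by Slc2a2. Dapagliflozin blocks SGLT2 from the lumen, so glucose and sodium are lost into the urine even without diabetes, and it leaves the gene itself intact.

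Libraries are numbered here within each group in the order of their sample records, of which some were not analysed here, and the numbers pair no samples. The dapagliflozin libraries, numbers 2, 3, 5 and 6, had capture numbers 11, 18, 55 and 72 in the labels. The vehicle libraries, numbers 1, 3, 4, 5 and 6, had capture numbers 54, 67, 75, 83 and 84, so low numbers occurred only with the drug. Genes detected at 1 TPM or more numbered 9788 ± 724 in dapagliflozin (SD, n = 4) and 10166 ± 577 in vehicle (n = 5), an exact two-sided permutation p of 0.365. Nuclear protein-coding genes took 8.88% ± 2.28 of TPM in dapagliflozin and 10.0% ± 1.55 in vehicle (exact permutation p = 0.397). All 12 markers that define the proximal tubule passed the filter, and their summed level was 1427, 3291, 1537 and 2017 TPM in dapagliflozin against 2250, 3167, 1994, 2226 and 1744 TPM in vehicle. Dapagliflozin library 3 stood above the other 3 of its group: among the 2622 genes with a mean of 10 TPM or more in either group, it held the highest dapagliflozin value for 77.2%. The depth behind each value is unknown, since TPM does not keep it.

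No gene passed the test. Of the 10364 genes, 0 were called at an adjusted p under 0.05 (0% in either direction), and adjusted p-values by limma with Benjamini-Hochberg adjustment ran from 0.937 to 1.00. At an unadjusted p under 0.05 there were 426 genes (4.11%), 55 with higher values under dapagliflozin (0.531%) and 371 with lower values (3.58%). This lopsided split depended on the scaling. The median log2 difference over all genes was −0.15, and 7606 genes (73.4%) lay below 0. That median was −0.27 without dapagliflozin library 3, and −0.073, −0.077 and −0.097 without dapagliflozin library 5, vehicle library 3 and dapagliflozin library 2. After median-of-ratios scaling, which centres the typical gene between libraries, the median was 0.00 and the same threshold held 291 genes higher (2.81%) and 294 lower (2.84%), again with 0 called.

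Precision was limited by the spread between libraries. The 95% interval of a gene's log2 difference had a median half-width of 0.56, a 1.48-fold range to each side on the log2(TPM + 1) scale. It lay wholly between −1 and 1 for 8217 genes, 79.3% of those tested, and for 1975 of the 2421 genes with a mean of at least 10 TPM. That scale understates the change of genes near 1 TPM, so the interval says little about them, and a true change of that size need not pass the adjusted test. Without dapagliflozin library 3, the genes at an unadjusted p under 0.05 numbered 1174, of which 1134 had lower values, and still 0 were called. The corresponding number was 268 without dapagliflozin library 2 and 674 without vehicle library 6, with 0 called in both. At capture numbers of 54 or more, which leaves 2 dapagliflozin and 5 vehicle libraries, 653 genes had such a p, 42 higher and 611 lower, and 0 were called. With capture number as a covariate the number went the other way, to 299 genes, 67 higher and 232 lower. The median log2 difference was then −0.09, and 0 were called.

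**Figure D1:**
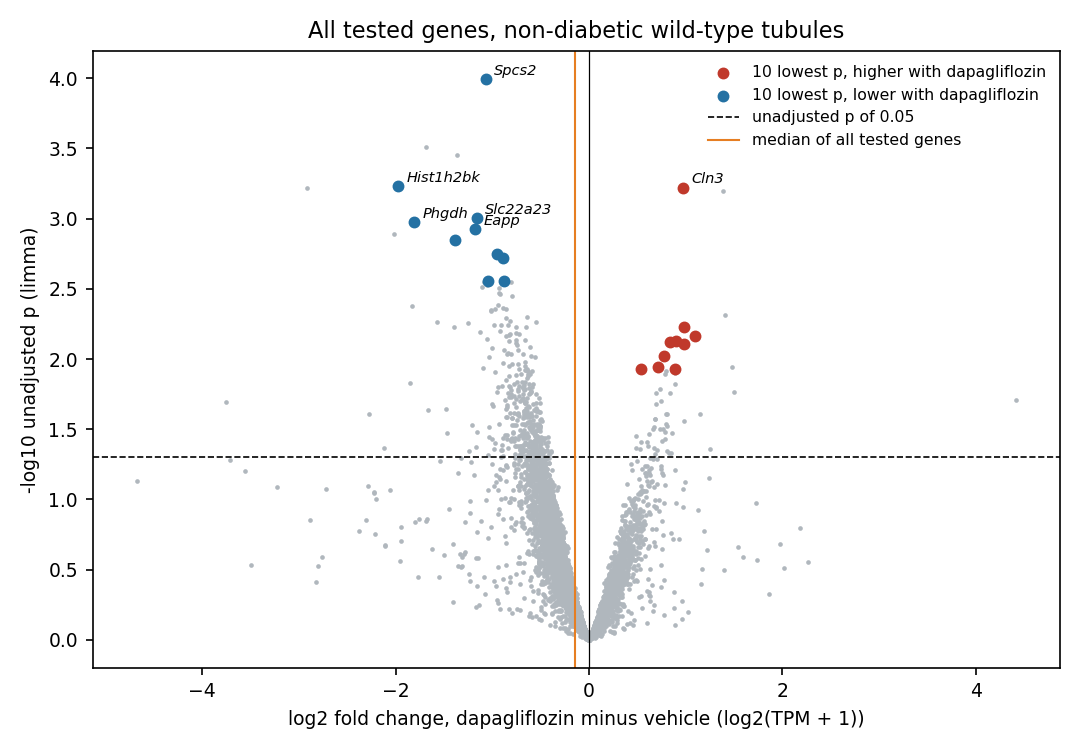
Each point is 1 of the 10364 tested genes. The horizontal axis is the log2 fold change of dapagliflozin minus vehicle on log2(TPM + 1), and the vertical axis is −log10 of the unadjusted limma p. Most of the cloud lies left of 0 around the median of −0.15, and Spcs2 on the left and Cln3 on the right carry the lowest p among the named genes of each direction.

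The drug's own target gave overlapping values in the groups. Slc5a2 (chromosome 7, 128265657 to 128272430, GRCm38) had 100.03, 249, 98.7 and 133 TPM in dapagliflozin tubules against 180, 264, 141, 171 and 129 TPM in vehicle tubules. The groups overlapped, with dapagliflozin library 3 among the high vehicle values and libraries 2 and 5 below every vehicle value. Its log2 difference was −0.35 ± 0.29 (SE), with a 95% interval from −0.93 to 0.24, and −0.16 after median-of-ratios scaling. Pdzk1ip1, whose product MAP17 is a partner that SGLT2 needs for activity, gave −0.21 ± 0.25 (interval −0.71 to 0.30).

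Slc5a1 (chromosome 5, 33104219 to 33162870) had 3.10, 2.65, 1.40 and 1.32 TPM in dapagliflozin against 2.92, 4.29, 2.27, 1.69 and 0.996 TPM in vehicle. These overlapping values gave a log2 difference of −0.11 ± 0.24 (interval −0.58 to 0.37), which turned to 0.04 after median-of-ratios scaling. Slc2a2 (chromosome 3, 28697903 to 28731359) had 6.15, 18.2, 9.69 and 10.6 TPM in dapagliflozin against 18.8, 21.9, 15.4, 15.8 and 10.8 TPM in vehicle. Only dapagliflozin library 3 reached into the upper vehicle range, and vehicle library 6 lay near the other dapagliflozin values. The Slc2a2 difference was −0.59 ± 0.28 (interval −1.14 to −0.03), the lowest p of the glucose transport list. After median-of-ratios scaling it was −0.41 ± 0.22, with an unadjusted p of 0.064 by limma. Slc5a10, a sodium-coupled mannose and fructose transporter, gave −0.50 ± 0.29, and Slc2a5, the fructose transporter GLUT5, gave −0.46 ± 0.33. All 10 glucose transport genes had log2 differences below 0, beside 73.4% of all genes. Relative to the median of all genes 7 of the 10 were below it, with a list median of −0.29.

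**Figure D2:**
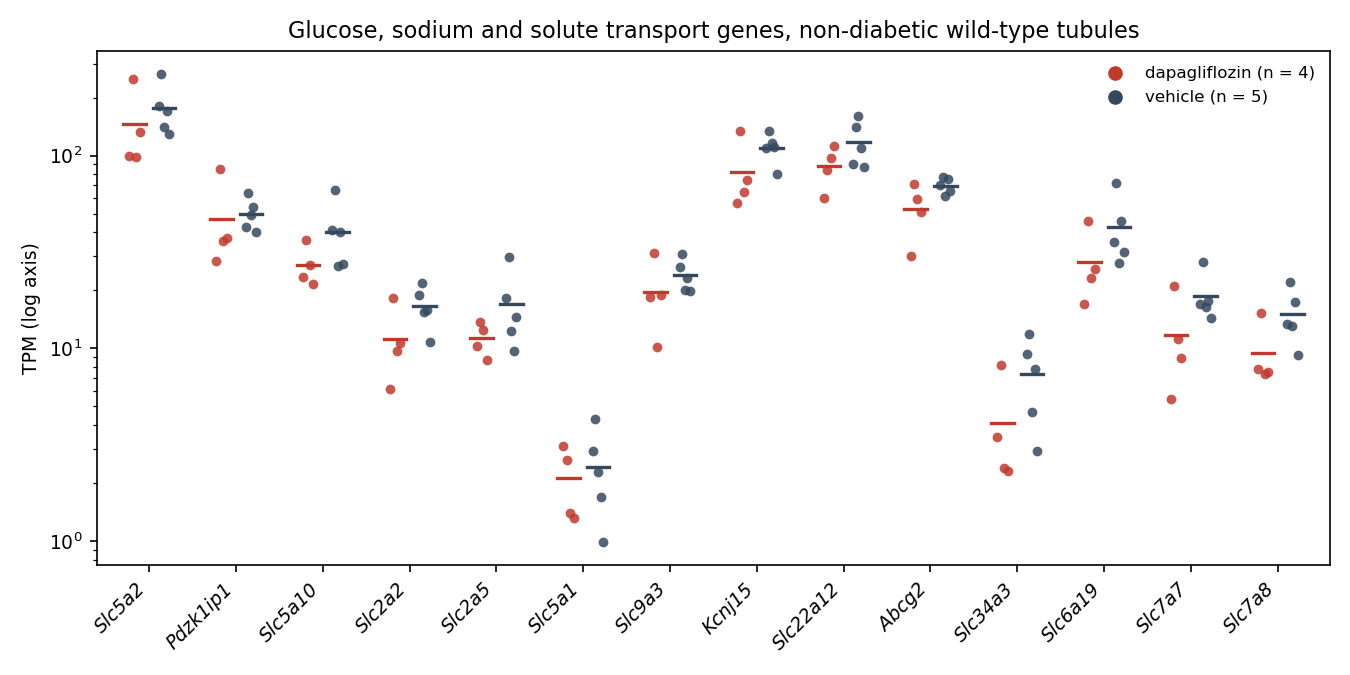
TPM on a log axis for 14 transport genes in the 4 dapagliflozin (left) and 5 vehicle (right) libraries of each gene. Points are libraries and short lines are group means. The groups overlap in every gene shown, and the highest dapagliflozin point of Slc5a2 at 249 TPM is library 3.

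Sodium and acid-base transport gave small differences. Of 16 genes, all of which passed the filter, 14 lay below 0 and the list median was −0.21, which is −0.06 relative to all genes. Slc9a3, the sodium/proton exchanger NHE3 of the brush border, had 18.6, 31.1, 10.2 and 18.95 TPM in dapagliflozin against 26.4, 30.8, 20.1, 23.2 and 19.8 TPM in vehicle. The highest value of either group was in dapagliflozin library 3, and the log2 difference was −0.35 ± 0.26 (interval −0.87 to 0.17). Kcnj15, a potassium channel of the basolateral membrane, gave −0.48 ± 0.27.

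In phosphate handling and vitamin D control the lowest p was that of Cyp24a1. Cyp24a1, the enzyme that breaks down active vitamin D (chromosome 2, 170482708 to 170497145), had 1.10, 3.34, 0.411 and 3.10 TPM in dapagliflozin against 6.17, 17.7, 4.57, 8.07 and 3.88 TPM in vehicle. The groups did not overlap, as in 100 of all tested genes with lower values (0.965%), and vehicle library 3 was the highest. The log2 difference was −1.57 ± 0.54 (interval −2.66 to −0.49) and did not pass the test. Slc34a3, the sodium-phosphate cotransporter NaPi-IIc, gave −0.72 ± 0.36, and Kl, which encodes the FGF23 co-receptor klotho, gave −0.45 ± 0.25. Of the 12 genes of the list 10 were tested and 8 lay below 0.

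Urate and organic ion transporters and amino acid transporters had differences of like size. All 20 tested urate and organic ion genes (of 23) were below 0, with a median of −0.28, which is −0.13 relative to all genes. Slc22a12, the urate transporter URAT1, had 60.0, 84.3, 97.3 and 112 TPM in dapagliflozin against 90.02, 141, 161, 110.02 and 87.2 TPM in vehicle, and gave −0.40 ± 0.26. Abcg2, an ATP-driven urate exporter, gave −0.45 ± 0.28. Values of both overlapped between the groups. Among 16 tested amino acid transporters 14 lay below 0 (median −0.30). The lowest p in that list was that of Slc7a8, a basolateral exchanger of neutral amino acids, at −0.62 ± 0.29 (interval −1.21 to −0.02). Slc6a19, the apical neutral amino acid transporter B0AT1, gave −0.60 ± 0.33, and Slc7a7, part of the basolateral dibasic exchanger, gave −0.74 ± 0.41.

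In fuel metabolism the median differences were small and mostly of 1 sign. All 21 genes of the TCA cycle were tested and lay below 0 (median −0.28), and 19 of them lay below the median of all genes, or 18 after median-of-ratios scaling. Suclg1, a subunit of succinyl-CoA ligase, had 16.0, 27.9, 23.7 and 26.6 TPM in dapagliflozin against 30.7, 28.2, 29.4, 34.2 and 29.7 TPM in vehicle. These values did not overlap, although dapagliflozin library 3 came within 1 TPM of the lowest vehicle value, and the difference was −0.38 ± 0.23. All 23 fatty acid oxidation genes were tested, 21 lay below 0, and the median of −0.37 was −0.22 relative to all genes. Acadm, the medium-chain acyl-CoA dehydrogenase, gave −0.60 ± 0.29, Etfdh, which passes electrons from fat oxidation to ubiquinone, −0.50 ± 0.22, and Acsl1, a long-chain acyl-CoA synthetase, −0.59 ± 0.28.

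Genes of ketone use and PPAR-alpha targets had a median of −0.38 over the 14 tested of 20. Oxct1, the rate-limiting enzyme of ketone body use, had 66.8, 153, 121 and 88.1 TPM in dapagliflozin against 172, 194, 166, 191 and 98.3 TPM in vehicle. Vehicle library 6 lay among the dapagliflozin values and the others above them, with a difference of −0.64 ± 0.26 (interval −1.17 to −0.11). Cd36, a fatty acid transporter, had 25.7, 31.2, 34.7 and 34.3 TPM in dapagliflozin against 65.01, 39.9, 57.2, 54.7 and 36.9 TPM in vehicle. Its groups did not overlap, and the difference was −0.65 ± 0.33. For fat synthesis, Fasn, fatty acid synthase, gave −0.65 ± 0.25 and Scd1, stearoyl-CoA desaturase, −1.06 ± 0.38 at low levels, with 1 dapagliflozin library and 4 of vehicle at 1 TPM or more. Scd1 was thus tested only through the vehicle libraries, where it was higher.

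Gluconeogenesis lay close to the median of all genes. Of 12 tested genes 8 were below 0, the list median was −0.19, and relative to all genes it was −0.04, turning to 0.05 with quantile normalization. G6pc, which releases free glucose from glucose 6-phosphate, had 13.7, 39.3, 21.2 and 20.5 TPM in dapagliflozin against 31.1, 52.8, 36.1, 30.9 and 20.9 TPM in vehicle. The groups overlapped, and the difference was −0.56 ± 0.34 (interval −1.25 to 0.13). Fbp1, fructose-1,6-bisphosphatase, gave −0.37 ± 0.26, and Pcx, pyruvate carboxylase, −0.45 ± 0.27. Glycolysis had a median of −0.31 over 17 tested genes, with Pgk1, phosphoglycerate kinase, at −0.51 ± 0.27. The polyol pathway enzyme Akr1b3, aldose reductase, had 3.82, 6.25, 5.40 and 3.39 TPM in dapagliflozin against 7.59, 8.82, 6.35, 6.70 and 6.46 TPM in vehicle. All 4 dapagliflozin values were below all 5 of vehicle by a narrow margin, for a difference of −0.54 ± 0.32.

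For the respiratory chain, 33 of 36 complex I genes and 32 of 33 genes of complexes III to V lay below 0, with medians of −0.28 and −0.30. Relative to all genes, of which 73.4% lay below 0, these medians were −0.13 and −0.16. After median-of-ratios scaling they were −0.10 and −0.11 relative to all genes, with 27 of 36 and 22 of 33 genes below 0. The 13 protein-coding genes of the mitochondrial genome had a median of −0.27, −0.13 relative to all genes and 0.13 relative to them with quantile normalization. mt-Atp6, a subunit of the mitochondrial ATP synthase, gave −0.65 ± 0.33.

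**Figure D3:**
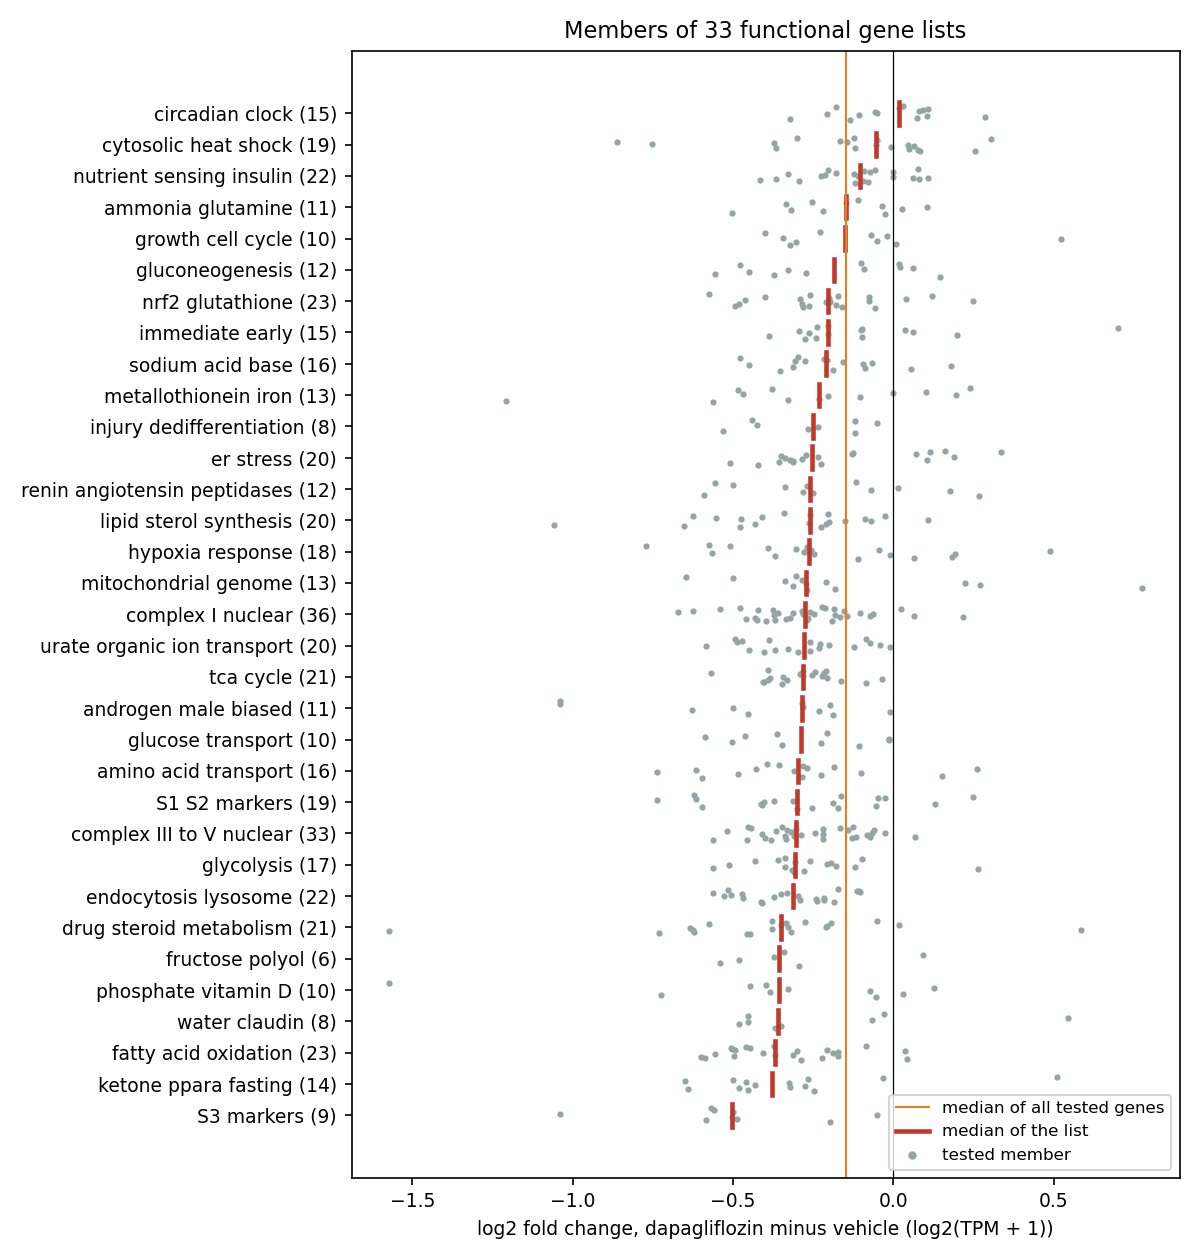
Log2 fold changes of dapagliflozin minus vehicle on log2(TPM + 1) for the tested members of 33 functional gene lists, with the number tested in brackets. Grey points are genes, red bars are list medians, and the orange line is the median of all tested genes at −0.15. List medians run from 0.02 for the circadian clock to −0.50 for S3 markers.

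Lists of segment identity and endocytosis also had most members below 0. All 22 genes of endocytosis and the lysosome lay below 0 (median −0.31, or −0.17 relative to all genes), and 19 of them after median-of-ratios scaling. Ctsd, the lysosomal protease cathepsin D, gave −0.53 ± 0.26, and Lrp2, the endocytic receptor megalin, gave −0.41 ± 0.26. Markers of the late S3 segment had the lowest median of the functional lists, −0.50 over the 9 tested of 12 genes, or −0.36 relative to all genes and −0.31 after median-of-ratios scaling. Acsm3, a medium-chain acyl-CoA synthetase that is higher in males in mouse kidney, had 7.92, 7.39, 12.4 and 14.1 TPM in dapagliflozin against 30.5, 22.01, 44.2, 15.3 and 10.5 TPM in vehicle. Vehicle libraries 1, 3 and 4 were high, vehicle library 6 lay among the dapagliflozin values, and the difference was −1.04 ± 0.51 (interval −2.07 to −0.01). Androgen-controlled and male-biased genes all lay below 0 (11 of 11 tested, median −0.29).

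Stress and signalling lists lay on both sides of the median of all genes. Relative to it, their medians ran from −0.12 for the hypoxia response to 0.16 for the circadian clock. Of 27 injury and dedifferentiation genes 8 passed the filter, and their summed level was 33.8 to 57.5 TPM in dapagliflozin and 38.5 to 69.3 TPM in vehicle. Spp1, osteopontin, gave −0.53 ± 0.46 and Clu, clusterin, −0.27 ± 0.42. Cytosolic heat shock genes had a median of −0.05, above the median of all genes, while Hsp90aa1, the inducible HSP90, had 21.5, 29.5, 37.4 and 29.1 TPM in dapagliflozin against 31.8, 40.5, 65.5, 58.4 and 58.7 TPM in vehicle. Dapagliflozin library 5 overlapped with vehicle library 1, and the difference was −0.75 ± 0.27 (interval −1.29 to −0.21).

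Pdia3, a disulfide isomerase of the endoplasmic reticulum, had 23.5, 40.1, 36.1 and 34.3 TPM in dapagliflozin against 45.3, 50.96, 45.9, 48.5 and 45.8 TPM in vehicle, with no overlap and a difference of −0.51 ± 0.23. The 5 vehicle values lay close together and dapagliflozin library 2 was the lowest. Hypoxia response genes had a median of −0.26 and NRF2 and glutathione genes −0.20, and Hmox1, heme oxygenase 1, gave −0.58 ± 0.26 at 3 TPM or less. Nutrient sensing and insulin signalling had a median of −0.10, growth and the cell cycle −0.15, and immediate early genes −0.20. The circadian clock was the functional list with the highest median, 0.02, with 8 of 15 tested genes above 0. Nr1d1, the clock repressor REV-ERB alpha, gave −0.21 ± 0.31, and Per2, a period gene, 0.28 ± 0.46.

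The remaining functional lists had medians of −0.36 for fructose and polyol metabolism and for water channels and claudins, −0.35 for drug and steroid metabolism, −0.30 for markers of the S1 and S2 segments and −0.26 for lipid and sterol synthesis and for the renin-angiotensin list. They were −0.25 for endoplasmic reticulum stress and for the list around the guanylin genes, −0.23 for metallothioneins and iron and −0.15 for ammonia production. Over all lists, 571 of 704 genes were tested and 0 were called. At an unadjusted p under 0.05, 25 of the 571 had lower values (4.38%, beside 3.58% of all genes) and 0 had higher values (beside 0.531% of all genes). Groups did not overlap for 12 list genes with lower values (2.10%, beside 0.965% of all genes). After median-of-ratios scaling this held for 3 of the 571 list genes, a smaller share than the 72 of all 10364 genes (0.695%). Cd36, Suclg1, Akr1b3, Pdia3, Csf1r and Umod, free of overlap in TPM, overlapped after that scaling. List genes higher without overlap numbered 0 (beside 0.174% of all genes). After that scaling they numbered 3 of the 571, a smaller share than the 78 of all 10364 genes (0.753%).

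Leaving out predicted genes, clones and pseudogenes, the 10 genes with the lowest unadjusted p among those higher with dapagliflozin were Cln3, Lmln, Ubxn7, Ugt2b5, Tfpt, Dynlt1c, Jarid2, Mettl2, Tma16 and Fbxo42. Cln3, a lysosomal membrane protein whose loss causes juvenile Batten disease (chromosome 7, 126571207 to 126585817), had 3.57, 2.85, 2.04 and 5.63 TPM in dapagliflozin against 0.879, 2.19, 1.09, 1.03 and 1.07 TPM in vehicle. Only vehicle library 3 overlapped with dapagliflozin library 5, and the difference was 0.97 ± 0.27 (interval 0.44 to 1.51, adjusted p = 0.937 by limma). Jarid2, a cofactor of the Polycomb repressive complex PRC2, had 8.16, 12.7, 12.3 and 11.4 TPM in dapagliflozin against 6.15, 4.36, 7.07, 6.24 and 6.55 TPM in vehicle. These groups did not overlap, as for 18 genes with higher values in all (0.174%), and the difference was 0.78 ± 0.29. Tfpt, a subunit of the INO80 chromatin remodeller, had 3.63, 4.68, 4.65 and 4.97 TPM in dapagliflozin against 2.42, 1.92, 2.00, 2.71 and 1.38 TPM in vehicle. It was also free of overlap, at 0.84 ± 0.30. Ubxn7, an adaptor of the p97 ATPase, gave 1.10 ± 0.39, the largest of the 10 differences, from 8.71 to 18.7 TPM in dapagliflozin and 1.92 to 10.6 TPM in vehicle. Dynlt1c and Mettl2 reached 1 TPM in every dapagliflozin library. In vehicle, only library 4 did so for Dynlt1c (1.22 TPM) and only library 3 for Mettl2 (1.31 TPM). Both genes were thus tested through the dapagliflozin libraries, where they were higher.

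Among genes lower with dapagliflozin, with the same kinds of gene left out, the 10 lowest p belonged to Spcs2, Hist1h2bk, Slc22a23, Phgdh, Eapp, Sept2, Sdcbp, Stx1a, Gfod2 and Apoh. Spcs2, a subunit of the signal peptidase complex (chromosome 7, 99837569 to 99863462), had 1.52, 5.40, 5.90 and 3.14 TPM in dapagliflozin against 9.52, 8.26, 8.94, 10.9 and 6.39 TPM in vehicle. The groups did not overlap in TPM, and the difference was −1.06 ± 0.25 (interval −1.57 to −0.56, adjusted p = 0.937 by limma). After median-of-ratios scaling the groups overlapped, with dapagliflozin library 5 above vehicle library 3, and the difference was −0.92 ± 0.26. Phgdh, which starts serine synthesis from glycolysis, had 0.410, 0.817, 0.294 and 0 TPM in dapagliflozin against 4.16, 10.5, 5.45, 4.42 and 0.138 TPM in vehicle. Vehicle library 6 lay among the dapagliflozin values and the other 4 vehicle libraries above them. Since no dapagliflozin library reached 1 TPM, Phgdh was tested only through those 4 vehicle libraries, and such a gene had to differ.

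Slc22a23, a member of the organic ion transporter family, had 3.26, 7.15, 3.67 and 4.28 TPM in dapagliflozin against 10.0, 15.3, 14.7, 12.1 and 5.96 TPM in vehicle. Only vehicle library 6 reached into the dapagliflozin range, and the difference was −1.16 ± 0.33. Hist1h2bk, a histone H2B gene, was listed at 0 in all 4 dapagliflozin libraries against 3.69, 4.60, 4.22, 1.31 and 1.98 TPM in vehicle. Sept2, a cytoskeletal septin, was listed at 1.25 TPM in dapagliflozin library 2 and at 0 in the other 3, against 2.01, 2.12, 2.73, 2.04 and 2.14 TPM in vehicle. Both genes, and Stx1a, Gfod2 and Apoh, had enough TPM to be tested only through the vehicle libraries. A value of 0 can be a failed estimate. Zeros made up 1.25% of the tested values.

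**Figure D4:**
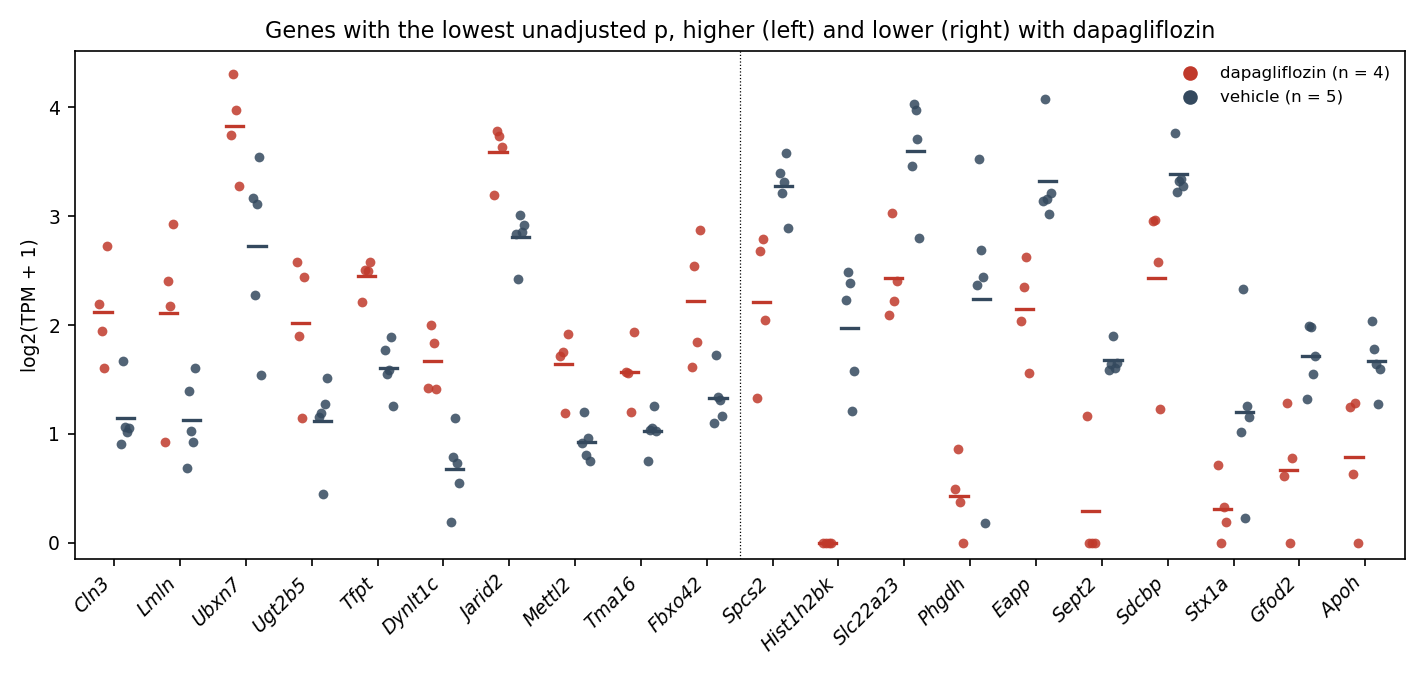
log2(TPM + 1) of the 20 named genes with the lowest unadjusted p, the 10 higher with dapagliflozin left of the dotted line and the 10 lower right of it. Each gene shows the 4 dapagliflozin libraries left of the 5 vehicle libraries, with group means as short lines. Jarid2 and Tfpt on the left and Spcs2 on the right are examples with no overlap in TPM without further scaling. Hist1h2bk lies at 0 in all dapagliflozin libraries.

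Markers of other nephron segments and cells were also measured, and in these bulk tubule samples fewer cells of a type cannot be told apart from less RNA per cell. Umod, uromodulin of the thick ascending limb (chromosome 7, 119462711 to 119479282), had 8.44, 6.08, 10.2 and 8.20 TPM in dapagliflozin against 41.7, 28.6, 37.1, 12.5 and 11.3 TPM in vehicle. The groups did not overlap, with vehicle libraries 1, 3 and 4 high, and the difference was −1.40 ± 0.48 (interval −2.37 to −0.42). The 8 thick limb markers, 4 of them tested, summed to 23.8, 14.5, 17.2 and 19.5 TPM in dapagliflozin against 63.0, 44.7, 58.8, 22.2 and 17.2 TPM in vehicle. Vehicle libraries 1, 3 and 4 were again the high ones, as for Acsm3, and the part of carried-over tissue in these results was not tested. Slc12a3, the sodium chloride cotransporter of the distal convoluted tubule, ran from 8.80 to 122 TPM in dapagliflozin and from 6.09 to 105 TPM in vehicle. With it the 6 markers of that segment summed to 142, 56.0, 11.7 and 32.0 TPM in dapagliflozin against 83.8, 35.2, 126, 28.9 and 12.3 TPM in vehicle, with high and low libraries in both groups. The 11 collecting duct markers summed to 9.98 to 25.7 TPM in dapagliflozin and 9.71 to 31.3 TPM in vehicle, and the 11 endothelial markers to 43.1 to 67.3 TPM in dapagliflozin and 38.9 to 96.4 TPM in vehicle.

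Podocyte markers summed to 34.6, 8.16, 2.11 and 3.92 TPM in dapagliflozin against 7.99, 8.70, 6.51, 5.99 and 3.18 TPM in vehicle, so that dapagliflozin library 2 stood apart. That library also held the highest sum of mesangial, fibroblast and smooth muscle markers, at 52.9 TPM beside 12.0 to 17.4 TPM in the other dapagliflozin libraries and 7.86 to 27.9 TPM in vehicle. Macrophage and myeloid markers summed to 6.38 to 17.9 TPM in dapagliflozin and 13.4 to 125 TPM in vehicle, where Cd74, the invariant chain of antigen presentation, made up 118 TPM of vehicle library 6. Csf1r, the macrophage growth factor receptor, had 1.47, 1.12, 0.497 and 0.606 TPM in dapagliflozin against 3.66, 1.66, 3.99, 1.86 and 1.67 TPM in vehicle, without overlap, and gave −0.86 ± 0.40. Csf1r had enough TPM to be tested only through the vehicle libraries, where it was higher. Lymphocyte markers summed to 2.45 TPM or less in dapagliflozin and 3.00 TPM or less in vehicle. The sums of the 5 red cell markers reached 3.09 TPM in dapagliflozin and 20.1 TPM in vehicle, and those of the 5 adipocyte markers 0.784 TPM in dapagliflozin and 7.26 TPM in vehicle. The B cell marker Ms4a1 and the adipocyte markers Lep and Retn were listed at 0 in all 9 libraries.

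Whether the drug effect differed from that in other backgrounds was tested as an interaction. Against non-diabetic Sglt1 knockouts 0 genes were called (0%), while 403 reached an unadjusted p under 0.05 (3.89%), 105 higher (1.01%) and 298 lower (2.88%). After median-of-ratios scaling the split was 3.78% higher and 4.49% lower (465 genes). The number was 745 without wild-type dapagliflozin library 3 and 670 without knockout vehicle library 5, with 0 called in both. The lowest adjusted p, 0.261 by limma, belonged to Sox5, a transcription factor, whose log2 difference was 0.41 ± 0.29 in wild type and −1.39 ± 0.26 in knockouts. In the knockouts it was the only gene called for dapagliflozin (0.00965%, adjusted p = 0.0224). Anapc4, a subunit of the anaphase-promoting complex, had 4.82, 5.96, 4.60 and 4.37 TPM in dapagliflozin against 3.24, 3.91, 2.82, 3.54 and 2.04 TPM in wild-type vehicle. These values did not overlap, and the interaction was 1.34 ± 0.34, which passed an adjusted p of 0.05 with each of 3 other scalings. Acsl5, a long-chain acyl-CoA synthetase, gave −0.85 ± 0.37 in wild type and 0.95 in knockouts.

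Against Akita wild type 0 genes were called (0%), while 1307 had an unadjusted p under 0.05 (12.6%), of which 1291 were lower in the non-diabetic contrast (12.5%). After median-of-ratios scaling the split was 378 higher (3.65%) and 475 lower (4.58%). The number was 2166 without non-diabetic wild-type dapagliflozin library 3 and 827 without library 2 of that group, with 0 called in both. The median of that interaction over all genes was −0.36, since the median drug difference was −0.15 without diabetes and 0.21 in Akita wild type. The lowest adjusted p was 0.233 by limma, shared by Spcs2, Mogat1, Cyp4a12a, Adh5 and Hsp90aa1. Cyp4a12a, a male-specific arachidonic acid hydroxylase of mouse kidney, gave −0.63 ± 0.33 without diabetes and 1.23 in Akita wild type, an interaction of −1.86. Hsp90aa1 gave −0.75 without diabetes and 0.76 in Akita wild type, an interaction of −1.51. Relative to the median of all genes, fatty acid oxidation was −0.22 in non-diabetic wild type, against 0.22 in non-diabetic knockouts, 0.24 in Akita wild type and 0.19 in Akita knockouts. Androgen-controlled genes were −0.14 in non-diabetic wild type, against 0.26 in non-diabetic knockouts, 0.73 in Akita wild type and 0.32 in Akita knockouts. This turn of sign was not particular to these lists. It was also present for most other functional lists, among them the TCA cycle, urate and organic ion transport, endocytosis and the lysosome, complex I and S3 markers. The S3 list shares Slc7a13, Acsm3 and Cyp4b1 with the androgen list. Glucose transport, lipid and sterol synthesis and the hypoxia response were among the lists that did not turn in every other background. All these values come from TPM without further scaling.

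Guca2b, which encodes uroguanylin, a peptide that promotes salt loss, gave −0.05 ± 0.30 in non-diabetic wild type (interval −0.65 to 0.55), from 29.1 ± 11.6 TPM with dapagliflozin (SD, n = 4) and 29.1 ± 6.25 TPM with vehicle (n = 5). Its difference was −0.08 in non-diabetic knockouts, 0.80 in Akita wild type and 1.05 in Akita knockouts, and the interaction with diabetes in wild type, −0.85, did not pass the test. Palm3, a paralemmin family member, gave −0.31 ± 0.30 in non-diabetic wild type, −0.55 in non-diabetic knockouts, −0.79 in Akita wild type and −1.13 in Akita knockouts. Its level was 7.03 ± 1.49 TPM with dapagliflozin and 9.83 ± 5.11 TPM with vehicle in non-diabetic wild type.

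**Figure D5:**
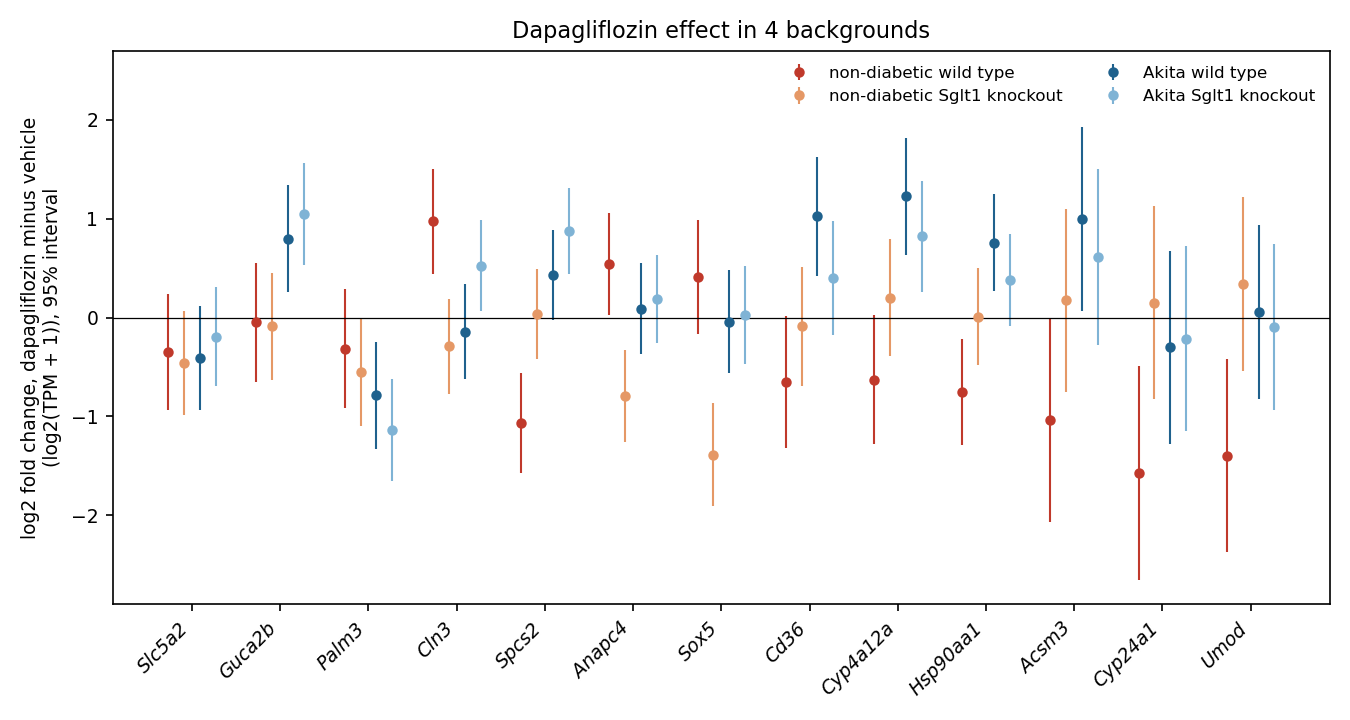
Log2 fold changes of dapagliflozin minus vehicle on log2(TPM + 1) with 95% intervals for 13 named genes in non-diabetic wild type, non-diabetic Sglt1 knockout, Akita wild type and Akita Sglt1 knockout tubules. Slc5a2 lies below 0 in all 4 backgrounds, from −0.19 to −0.46, with intervals that include 0.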

How the data were processed

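Each stranded total RNA library (SMARTer Pico chemistry) started from 0.5 ng of RNA whose DV200, the share of longer RNA fragments, exceeded 30%, per the labels' protocols. The deposited values are TPM, in which every library is scaled by the authors to the same sum. Per the submitters' processing notes, Salmon, MultiQC 1.8 and GRCm38 were used, with no version of Salmon. The deposited table's name states that outliers were removed, by criteria not given in the sources used here, and 2 labelled dapagliflozin samples and 1 vehicle sample were not analysed here.

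Of 55487 rows, 51896 matched the GENCODE M21 annotation, which gave positions. The capture number in a sample's title identified its column. log2(TPM + 1) was fitted with limma 3.58.1 (R 4.3.3, statmod 1.5.0) over all 48 libraries with 9 group means, 39 residual degrees of freedom and trended, robust variances. Two-sided p-values were adjusted by Benjamini-Hochberg over the 10364 genes with TPM of 1 or more in at least 4 of the 9 libraries, of which 9095 are annotated as protein-coding. Exact permutation tests were used for library values. The method was tested on simulated data.

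The comparison and the 46 gene lists were chosen with earlier results of these data known. The text names the 10 genes of lowest p in each direction (leaving out predicted genes, clones and pseudogenes), the 5 of each interaction, up to 4 of each list, and 6 set genes (Slc5a1, Slc5a2, Slc2a2, Pdzk1ip1, Guca2b and Palm3). Alternatives were other scalings, pseudocounts, filters, covariates and left-out libraries.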

Additional observations from a re-analysis of the deposited data

Results flagged for a closer look

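In 11 of 246 groups of values examined (121 named genes and the library values in both groups), 1 library lay far from the others of its group on the log2(TPM + 1) scale. Chance flags about 1 in 20 groups. With dapagliflozin, library 2 was the only one above 0 for Sept2 (1.25 TPM) and Hspb1 (0.754 TPM), library 3 was high for Slc7a8 (15.2 TPM), and library 5 was low for Per2 (1.16 TPM). In vehicle, library 3 was high for Cln3 (2.19 TPM) and Eapp (15.9 TPM), library 4 for Sept2 (2.73 TPM) and library 1 for Sdcbp (12.6 TPM). Vehicle library 6 was low for Ldha (29.5 TPM), Oxct1 (98.3 TPM) and Podxl (1.21 TPM).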

How the results depend on the processing

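The number of called genes in the main comparison was 0 in every alternative but 1: fitted on the 9 libraries alone it was 3 (1 higher, Gm23657, and 2 lower, Gm29717 and Hist1h2bk, named after their values were seen), each listed at 0 in every library of 1 group and so tested only through the other, where it had to differ. The interaction with genotype called 2 genes, Anapc4 and Med15 (named after its value was seen), with median-of-ratios scaling, quantile normalization and scaling to nuclear protein-coding genes, and 1 with genes detected as a covariate (Anapc4). The interaction with diabetes called 0 in each alternative. Leaving out each library in turn gave 0 to 0 called genes in the main comparison, 0 to 1 for genotype (Sox5, without dapagliflozin library 5) and 0 to 0 for diabetes. It gave a difference in genes detected of −714 to −139 and in the nuclear protein-coding share of −2.19 to −0.565 percentage points. At an unadjusted p under 0.05 the main comparison held 1595 genes with no filter and 463 with a pseudocount of 0.1. It held 653 at capture numbers of 54 or more and 299 with capture number as a covariate. Slc5a1 turned to 0.036, 0.045 and 0.041 with median-of-ratios, quantile and nuclear protein-coding scaling, and ranged from −0.28 (without vehicle library 6) to 0.069 (without vehicle library 3) with 1 library left out. Pdzk1ip1 turned to 0.013 with quantile normalization. Guca2b turned to 0.13, 0.15 and 0.14 with the same 3 scalings, 0.11 with genes detected as a covariate, and ranged from −0.28 (without dapagliflozin library 3) to 0.11 (without dapagliflozin library 2) with 1 library left out. The cause was not tested. Of 2819 single-gene values, 2787 were counted as unchanged. For the genes of lowest p, the 6 set genes and the interaction genes this meant the same direction and side of the threshold. For the other named genes it meant a shift smaller than the pooled SD within groups, with direction not checked. No paired analysis was possible because the labels carry no replicate numbers and those used here follow the order of the records. The unknown depth, 4 and 5 libraries, and the pooled tubules of unknown animals limit the precision.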
